A study of Homo sapiens with 13 samples.

Results

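The peaks described here are the PTBP1 and RUNX1 peaks of MOLM-13 cells that lay near the ends of the autosomes. A peak was a member when its summit, the position of its highest signal, was within 3 Mb of the first or last base of chromosomes 1 to 22 of the hg38 build. By this rule 2398 PTBP1 and 910 RUNX1 peaks were members, together 3308 of the 17058 peaks in both lists. MOLM-13 is a human acute myeloid leukemia cell line, and no treatment or other genotype was part of this series. Its chromatin was profiled in 13 libraries by CUT&Tag, where an antibody directs a transposase to the bound protein, and by CUT&RUN, where it directs a nuclease. PTBP1 and RUNX1 antibodies were used in both assays and H3K27me3 in CUT&RUN, each in 2 biological replicates, and the IgG control in 2 CUT&RUN and 1 CUT&Tag libraries. The values below come from 1 PTBP1 and 1 RUNX1 peak list that name a target but no replicate, from peak calling that the study's methods describe for CUT&Tag, so there was no spread between replicates and intervals cover counting error only.

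Telomeres are arrays of the hexamer TTAGGG that cap each chromosome. The subtelomeric sequence next to them carries segments copied between chromosomes and many tandem repeats, and further in come some of the most gene-dense and GC-rich stretches of the genome. PTBP1 regulates splicing by binding pyrimidine-rich stretches of RNA. RUNX1 is a hematopoietic transcription factor that recognises DNA around the core TGTGGT with its partner CBFB.

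Sequences of 101 bases around 6 summits, read from hg38 on the plus strand, are given as examples and not as typical members. All but the first pair were chosen among tandem repeats, which only 3.50% of PTBP1 and 6.26% of RUNX1 end summits had. The first pair contrasts the strongest PTBP1 end peak, upstream of the apoptosis gene SIVA1 (window chr14:104752838-104752938, both lists), with the strongest intronic end peak of PTBP1 alone, in intron 28 of WDR90 (chr16:660855-660955). Capitals mark CpG dinucleotides, of which these windows held 12 and 8.
14q, both lists: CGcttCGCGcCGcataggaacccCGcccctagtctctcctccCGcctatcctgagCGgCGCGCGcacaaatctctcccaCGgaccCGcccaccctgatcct
16p, PTBP1 alone: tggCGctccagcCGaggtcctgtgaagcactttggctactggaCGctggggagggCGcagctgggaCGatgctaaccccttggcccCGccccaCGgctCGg

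The next pair shows RUNX1 summits with a RUNX motif (TGTGGT or TGCGGT on either strand), in capitals. They are a tandem repeat near the tip of 7p (chr7:103007-103107, both lists) and a tandem repeat in intron 2 of AGPAT3 (chr21:43958705-43958805, RUNX1 alone). The 301 bases around these summits held 11 and 16 matches.
7p, both lists: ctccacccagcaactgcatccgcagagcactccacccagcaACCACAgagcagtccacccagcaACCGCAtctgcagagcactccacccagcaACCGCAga
21q, RUNX1 alone: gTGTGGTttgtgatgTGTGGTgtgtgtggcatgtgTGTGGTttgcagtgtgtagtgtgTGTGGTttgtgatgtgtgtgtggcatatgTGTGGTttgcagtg

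The last pair shows PTBP1 summits in repeats, at 6q (chr6:170146255-170146355, PTBP1 alone) and in intron 4 of LINC00452 (chr13:113916379-113916479, both lists). Capitals mark the most frequent 10 bases of each window.
6q, PTBP1 alone: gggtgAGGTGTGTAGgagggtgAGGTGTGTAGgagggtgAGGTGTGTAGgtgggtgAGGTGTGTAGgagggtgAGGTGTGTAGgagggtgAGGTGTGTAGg
13q, both lists: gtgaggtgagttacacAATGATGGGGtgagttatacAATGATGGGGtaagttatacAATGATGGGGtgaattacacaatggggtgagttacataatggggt

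PTBP1 peaks were far denser at the ends than in the rest of the autosomes, and RUNX1 peaks were denser by less. The ends held 115 Mb of assembled sequence, 4.17% of the autosomes, and 8.60% of the protein-coding genes, at 14.3 genes per Mb against 6.61 in the interiors. They held 25.9% of the autosomal PTBP1 peaks (2398 of 9253; 95% Wilson interval 25.03 to 26.8%) and 12.0% of the autosomal RUNX1 peaks (910 of 7567; 11.3 to 12.8%). PTBP1 density was 20.8 peaks per assembled Mb at the ends (95% exact Poisson interval 20.02 to 21.7) and 2.60 in the interiors (2.53 to 2.66). RUNX1 density was 7.91 at the ends (7.40 to 8.44) and 2.52 in the interiors (2.46 to 2.58).

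Each autosome gave 1 value for its ends and 1 for its interior, and the difference was tested by a two-sided exact sign test over 22 autosomes, with Benjamini-Hochberg adjustment over 17 such tests. PTBP1 density was higher at the ends on 22 of 22 autosomes, a log2 ratio of 3.01 from the pooled values (adjusted p = 2.7e-06, exact sign test). RUNX1 density was higher on 21 of 22, a log2 ratio of 1.65 (adjusted p = 2.66e-05, exact sign test). The exception was chromosome 15, with 2.01 RUNX1 peaks per Mb at its assembled end and 2.90 inside. The share of a list found at the ends was larger for PTBP1 than for RUNX1 on 21 autosomes by the same exact sign test, with 13.9 percentage points between the pooled shares (adjusted p = 2.66e-05). Chromosome 3 went the other way, with 5.28% of its PTBP1 and 8.22% of its RUNX1 peaks at the ends. Counted per protein-coding gene in place of per Mb, the ends had 1.46 PTBP1 peaks against 0.392, and 0.554 RUNX1 peaks against 0.381. Leaving out every 1 Mb window with at least 50 PTBP1 peaks brought the end densities down to 9.80 for PTBP1 and 5.37 for RUNX1, against 2.42 and 2.48 inside, and both differences still passed the test.

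**Figure D1:**
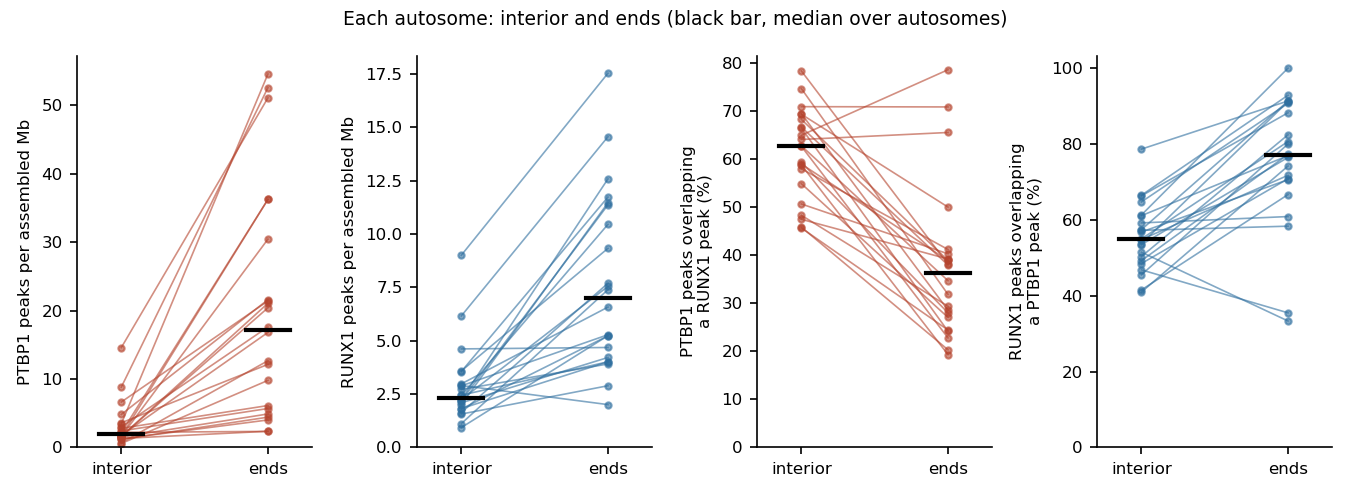
Each line is 1 autosome, joining its interior to its ends, for peaks per assembled Mb (left pair of panels) and the percent of peaks that overlap a peak of the other list (right pair of panels); black bars are medians over autosomes. The median PTBP1 density rises from 1.95 to 17.2 and that of RUNX1 from 2.34 to 6.99, while the overlap share falls for PTBP1 and rises for RUNX1.

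The density was not even along the last 3 Mb. Within 0.1 Mb of the end there were 5.59 PTBP1 and 3.99 RUNX1 peaks per Mb (14 and 10 peaks). The outermost RUNX1 peak lay at 4p (chr4:28552-29019, fold enrichment over background 14.3). Both lists were densest from 0.5 to 1 Mb, at 32.0 and 10.6 peaks per Mb. From 2 to 3 Mb, just inside the limit that defined the members, there were 11.1 and 5.48, and from 3 to 4 Mb, just outside it, 5.89 and 3.96. Beyond 10 Mb the lists had nearly equal densities, 2.33 for PTBP1 and 2.37 for RUNX1. The GC share of the sequence followed a like course, from 45.3% at 0.1 to 0.25 Mb to 49.6% from 0.5 to 1 Mb and 40.2% beyond 10 Mb.

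**Figure D2:**
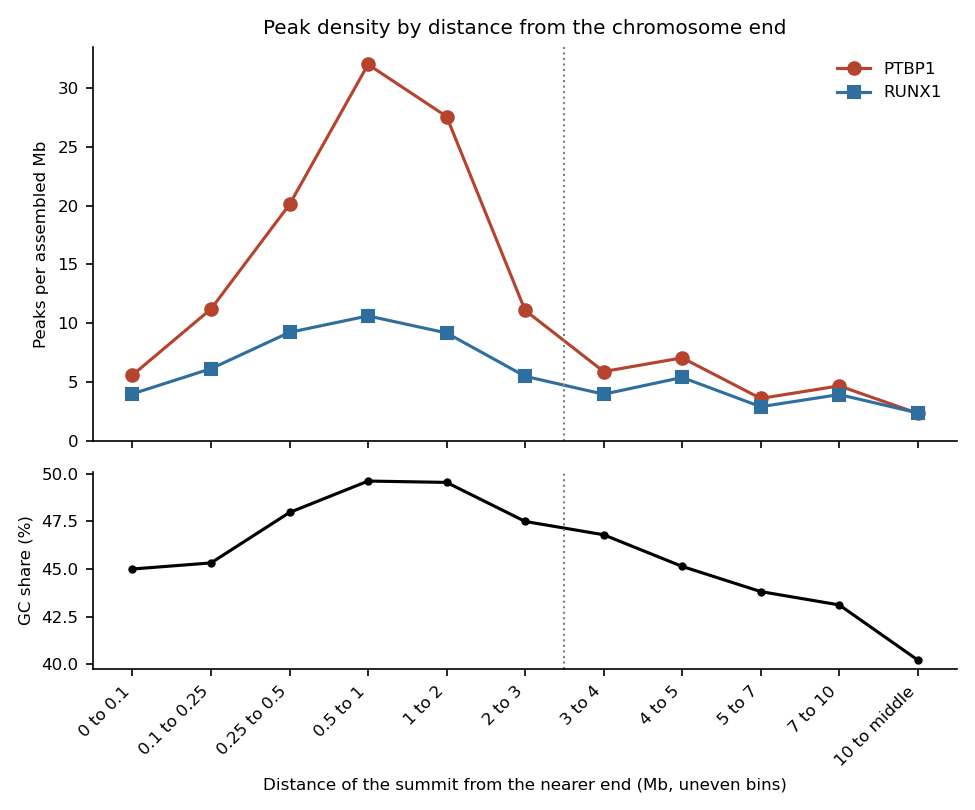
Peaks per assembled Mb (upper panel) and GC share (lower panel) by distance of the summit from the nearer chromosome end, in bins of uneven width; the dotted line is the 3 Mb limit. PTBP1 reaches 32.0 peaks per Mb from 0.5 to 1 Mb and falls to 5.89 from 3 to 4 Mb.

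Of 44 autosome ends, 39 held assembled sequence within 3 Mb and 5, the short arms of chromosomes 13, 14, 15, 21 and 22, held none and so no peak. The peaks were concentrated in a few ends. Most PTBP1 peaks were at 19p (267 PTBP1 and 88 RUNX1 peaks), 17q (264 and 55), 9q (206 and 45), 16p (191 and 41), 5p (190 and 50), 8q (175 and 69), 16q (130 and 28) and 7p (111 and 33). These 8 ends held 1534 (64.0%) of the PTBP1 and 409 (44.9%) of the RUNX1 members. At the other extreme, 6p had 0 PTBP1 and 3 RUNX1 peaks, and 3p had 1 of each. The median end had 26 PTBP1 and 18 RUNX1 peaks. PTBP1 peaks outnumbered RUNX1 peaks at 27 ends, were fewer at 9 and equal at 3. The end with most RUNX1 over PTBP1 peaks in number was 3q, with 30 RUNX1 and 13 PTBP1 peaks.

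**Figure D3:**
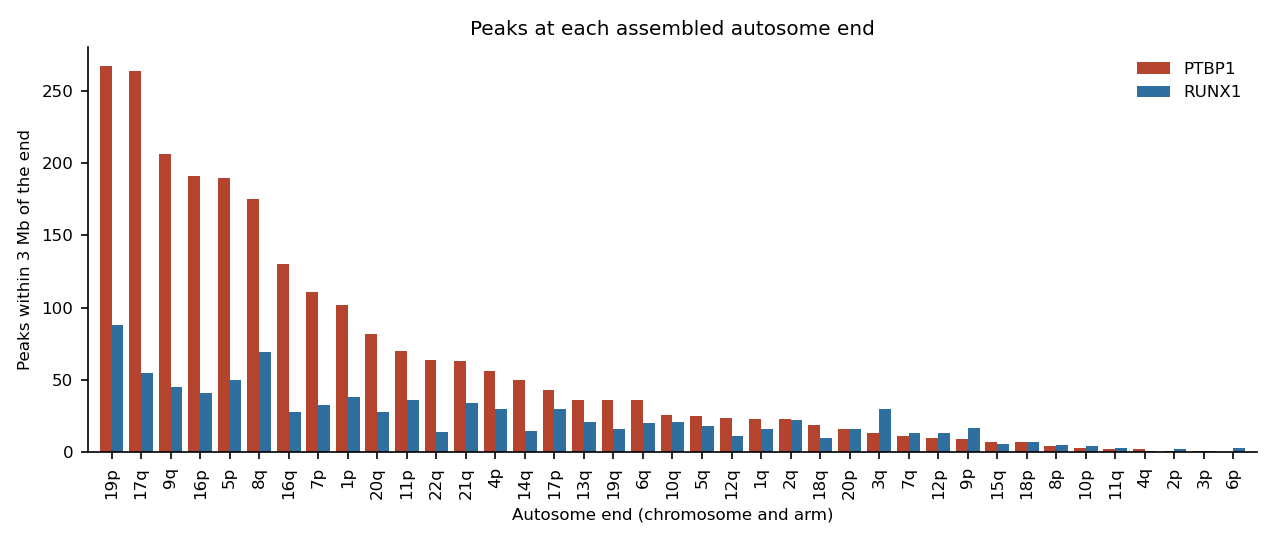
Number of PTBP1 and RUNX1 peaks within 3 Mb of each of the 39 assembled autosome ends, in order of the PTBP1 count. Counts of PTBP1 run from 267 at 19p to 0 at 6p, and those of RUNX1 from 88 at 19p to 1 at 3p and 4q.

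PTBP1 density rose with gene number over the ends, but single ends departed from this. The 5p end had 28 protein-coding genes and 190 PTBP1 peaks, 6.79 per gene, whereas 16p had 134 genes and 191 PTBP1 peaks, 1.43 per gene, and 19q had 106 genes and 36 peaks, 0.340 per gene. Across the 39 ends Spearman's rho was 0.893 between PTBP1 density and GC share and 0.799 between PTBP1 density and gene number. For RUNX1 density it was 0.797 with GC share and 0.799 with gene number. Between the densities of both lists it was 0.904. These are descriptions over ends of 1 genome, and the points of both lists share the same sequence composition and the same peak calling.

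GC share moved with peak density, so ends and interiors were also set side by side in 100 kb windows of like GC share. In windows of 55 to 60% GC there were 58.1 PTBP1 peaks per Mb at the ends and 29.0 in the interiors, and in windows of 50 to 55% there were 23.4 and 17.2. In windows of 45 to 50% the order was the other way, 5.34 and 6.14. RUNX1 had 16.5 and 15.2 peaks per Mb in windows of 55 to 60%, 11.0 and 11.3 in those of 50 to 55%, and 4.59 and 6.03 in those of 45 to 50%. Windows of at least 60% GC were almost all at the ends, 50 against 3. Over all windows of at least 50% GC, a comparison added after seeing the data, PTBP1 density was 45.7 against 18.7 per Mb, higher at the ends on 17 of 20 autosomes with such windows (adjusted p = 0.00876, exact sign test). RUNX1 density was 14.4 against 11.8, higher on 12 and lower on 8, and no longer passed the test (adjusted p = 0.571, exact sign test). These pooled windows were still richer in GC at the ends. In the interiors 117 Mb had 50 to 55% GC and 15.0 Mb had 55 to 60%, against 25.1 and 17.7 Mb at the ends. This comparison therefore did not hold GC share constant.

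**Figure D4:**
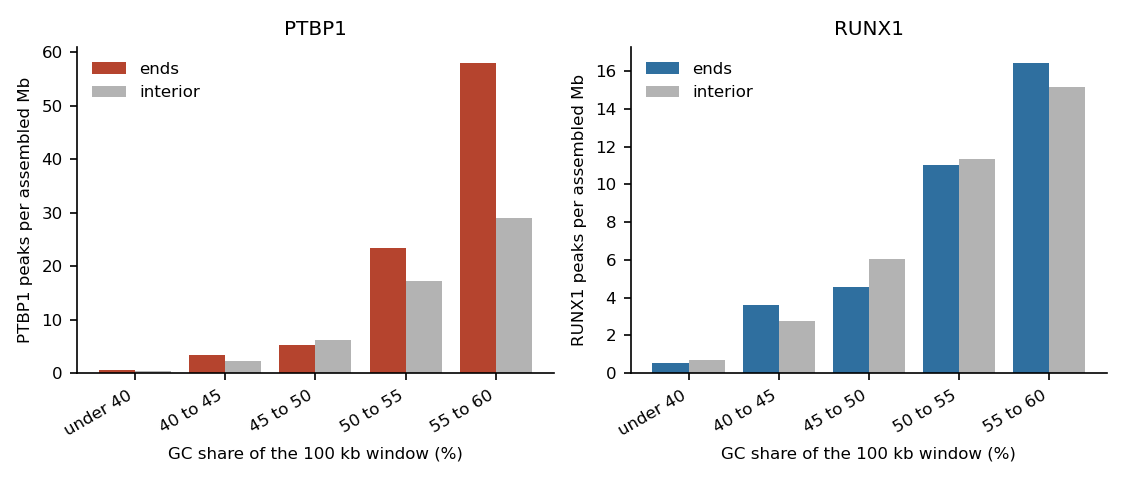
Peaks per assembled Mb in 100 kb windows grouped by GC share (x axis, percent), at the ends (coloured) and in the interiors (grey), for PTBP1 (left) and RUNX1 (right, on its own scale). In the class of 55 to 60% GC the bars stand at 58.1 and 29.0 for PTBP1 and at 16.5 and 15.2 for RUNX1.

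PTBP1 peaks at the ends lay close to each other and mostly away from start sites. The median distance between neighbouring PTBP1 summits was 5333.5 bases at the ends and 52108 in the interiors, and 48.3% against 18.8% of these distances were under 5 kb. The transcription start site (TSS) was taken as the 5′ end of an annotated gene. Start sites of shorter transcripts inside a gene were not counted. Only 39.9% of PTBP1 end peaks (956 peaks, Wilson interval 37.9 to 41.8%) reached to within 1000 bases of a TSS, against 62.4% in the interiors. The share was lower at the ends on 21 of 22 autosomes (adjusted p = 2.66e-05, exact sign test), but in windows of at least 50% GC it did not pass the test, at 37.4% against 52.2% (adjusted p = 0.108, exact sign test). PTBP1 peaks away from start sites numbered 12.5 per Mb at the ends and 0.976 inside, a log2 ratio of 3.68, higher on 22 of 22 autosomes (adjusted p = 2.7e-06, exact sign test).

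RUNX1 end peaks did not show this shift in place. Of them 54.9% (500) were at a TSS, against 53.6% in the interiors, a difference of 1.39 percentage points that did not pass the exact sign test (adjusted p = 0.324). Their median spacing was 33946 bases, against 95886 inside. RUNX1 peaks away from start sites numbered 3.56 per Mb at the ends and 1.17 inside, higher on 20 of 22 autosomes (adjusted p = 0.000187, exact sign test). In windows of at least 50% GC these densities were 6.54 and 5.60 (adjusted p = 0.875, exact sign test).

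The overlap of the lists shifted in opposite directions. At the ends 29.4% of PTBP1 peaks (706; Wilson interval 27.7 to 31.3%) shared at least 1 base with a RUNX1 peak, against 56.1% in the interiors, lower on 20 of 22 autosomes (adjusted p = 0.000187, exact sign test). Of RUNX1 end peaks 80.4% (732; 77.7 to 82.9%) overlapped a PTBP1 peak, against 57.7% inside, higher on 20 of 22 autosomes (adjusted p = 0.000187, exact sign test). The PTBP1 list was the longer at the ends, whereas in the interiors the lists were of nearly equal length (6855 and 6657 peaks), and both shares depend on the length of the other list. Among PTBP1 end peaks away from start sites 17.1% overlapped a RUNX1 peak, against 42.6% inside. Among RUNX1 end peaks at a TSS 90.6% overlapped a PTBP1 peak, against 76.3% inside.

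The autosomes that went against the direction for PTBP1 were chromosome 3, with an overlap of 78.6% at the ends and 64.9% inside, and chromosome 10, with 65.5% and 64.1%. For RUNX1 they were chromosome 3, with 35.5% and 46.8%, and chromosome 15, with 33.3% and 51.5%.

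Single ends differed widely in these shares. The overlap of PTBP1 peaks with RUNX1 was 18.3% at 16p, 19.7% at 17q, 20.4% at 9q and 20.5% at 5p, all among the fullest ends, whereas it was 84.6% at 3q and 65.2% at 1q. RUNX1 peaks overlapped PTBP1 at 15 of 15 sites at 14q, and in 96.4% of cases at 16q and 95.6% at 9q, against 36.7% at 3q and 41.2% at 9p. The share of PTBP1 peaks at a TSS was 14.2% at 5p and 56.0% at 16p, although these ends had nearly the same number of peaks.

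After merging overlapping peaks, the ends held 2567 regions, of which 1692 (65.9%) were PTBP1 alone, 697 (27.2%) shared and 178 (6.93%) RUNX1 alone. The interiors held 9621, of which 31.3% were PTBP1 alone, 39.4% shared and 29.3% RUNX1 alone. Here and elsewhere, alone means that no peak of the other list was called, which is not an absence of its signal. The paper describes signal of each factor at almost every peak of the other. Shared end regions had a median width of 1409 bases, PTBP1-only regions one of 600 and RUNX1-only regions one of 524. In the interiors these widths were 984.5, 488.5 and 519. A shared region spans all of its merged peaks, which widens it by construction. PTBP1 end peaks that overlapped RUNX1 were also stronger, with a median fold enrichment over background of 20.3, against 9.88 for those that did not. The interiors showed the same order, with 16.3 and 9.99.

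PTBP1 end peaks were slightly weaker than interior ones. Their median fold enrichment was 11.0 (quartiles 8.72 and 16.3), against 12.8 in the interiors, a difference of -0.21 in median log2 fold enrichment, lower on 19 of 22 autosomes (adjusted p = 0.00121, exact sign test). This corresponded to a median of 19 fragments at the summit, against 22. RUNX1 fold enrichment had the same median of 15.0 in both places (adjusted p = 0.523, exact sign test). The background that the peak caller used was raised above its usual level at 147 PTBP1 end peaks (6.13%; Wilson interval 5.24 to 7.16%), against 4.43% of interior peaks. For RUNX1 it was raised at 72 end peaks (7.91%; 6.33 to 9.85%), against 4.82%. The part of this background in the densities was not tested.

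By the canonical transcripts at the summit, PTBP1 end peaks without a called RUNX1 peak were mostly in genes. Of these 1692 peaks, 52.1% had their summit in an intron, 8.98% in a coding exon, 5.20% in a 3′ UTR and 29.3% outside any canonical transcript. These shares were not set against interior peaks or the share of end sequence inside transcripts, so they show no preference for genes. Shared PTBP1 end peaks were placed otherwise, with 51.1% outside canonical transcripts and 32.3% in introns. Of the 178 RUNX1-only end peaks, 89 were in introns and 74 (41.6%) outside transcripts. The CpG content differed too, with a median of 11 CpGs in 301 bases at PTBP1-only and 26 at shared PTBP1 end summits. In the interiors these medians were 15 and 24. Over all PTBP1 end summits the median was 13 CpGs, against 21 in the interiors, although the GC share was 65.4% against 63.8%.

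Genes with many PTBP1 summits in their bodies were found at these ends. AHRR, a repressor of the aryl hydrocarbon receptor at 5p, held 22 PTBP1 summits (fold enrichment 3.81 to 41.9) and 8 RUNX1 summits in chr5:321714-438291, all 8 of which overlapped PTBP1. The read-through gene PDCD6-AHRR, which contains it, held 28. The chromatin gene BAHCC1 at 17q held 17 PTBP1 and 3 RUNX1 summits, and the transporter gene SLC38A10 held 15 and 1. EXD3 at 9q and the potassium-chloride cotransporter gene SLC12A7 at 5p held 12 PTBP1 summits each and 0 RUNX1 summits. PIEZO1, a mechanically gated channel gene at 16q, held 9 and 0. PTPRN2, a receptor-type phosphatase gene at 7q, held 4 RUNX1 summits and 1 PTBP1 summit, none of them shared.

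Start sites of protein-coding genes carried a peak more often at the ends. Of all autosomal protein-coding genes 27.2% had a PTBP1 peak within 1000 bases of the TSS, 22% had a RUNX1 peak and 17.9% had both. Of the 1643 at the ends 803 had a PTBP1 peak (48.9%; Wilson interval 46.5 to 51.3%), against 25.2% of 17468 in the interiors, higher on 22 of 22 autosomes (adjusted p = 2.7e-06, exact sign test). A RUNX1 peak was at 510 (31.0%; 28.9 to 33.3%), against 21.1%, higher on 21 of 22 autosomes (adjusted p = 2.66e-05, exact sign test). Among genes whose TSS window was above the median in GC the RUNX1 shares were 36.3% and 30.8% and no longer passed (adjusted p = 0.162, exact sign test). Both peaks were at 472 end genes (28.7%), PTBP1 alone at 331 (20.1%) and RUNX1 alone at 38 (2.31%). In the interiors these shares were 16.9%, 8.31% and 4.24%. By end, PTBP1 was at 75.3% of 93 coding TSSs at 9q, 74.3% of 70 at 17q and 71.6% of 102 at 19p, but at 20.8% of 106 at 19q and 12.5% of 56 at 20p.

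Genes of known function at the ends were read against these shares by list, with the fold enrichment over background, taken at its summit, of the strongest peak that reached the TSS. Fold enrichments of the 2 lists rest on different backgrounds, so their sizes cannot be compared between lists. The neutrophil granule genes AZU1, PRTN3, ELANE and CFD form a cluster at 19p and mark myeloid precursors. Of these 4 genes, 3 had both peaks at the TSS. At CFD, which encodes complement factor D (chr19:859453-867884), a PTBP1 peak of 7129 bases reached the TSS but had its summit, of 136.6, in intron 4. The RUNX1 peak at the TSS had 17.3, and a separate RUNX1 peak at that PTBP1 summit had 41.4. The values were 45.3 and 24.1 at ELANE, the elastase gene (chr19:851014-856247), and 27.3 and 15.8 at AZU1. PRTN3, the proteinase 3 gene, had no peak at its TSS, while 2 PTBP1 peaks and 1 RUNX1 peak overlapped its body. The strongest of these were the same peaks, of 45.3 and 24.1, that reached the TSS of ELANE, and the RUNX1 one (chr19:847963-850643) did not extend into ELANE itself.

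The alpha-globin locus at 16p is active in erythroid cells. Its globin genes HBZ, HBM, HBA2, HBA1 and HBQ1 and the gene NPRL3, whose introns carry the globin enhancers, had no peak of either list. Reads that mapped poorly, as those from duplicated genes can, were discarded before peak calling. The part of this filter in these zeros was not tested, for NPRL3 or for the globin genes. The absence of a called peak is not an absence of binding. Of the 11 genes of the locus 4 had PTBP1 at the TSS, with fold enrichments from 4.62 at the DNA repair gene MPG to 9.88 at LUC7L, and POLR3K and SNRNP25 shared 1 of these peaks. RUNX1 was at the TSSs of RHBDF1 and MPG, by 1 peak with a fold enrichment of 14.5.

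Among 26 transcription and chromatin genes of the ends, PTBP1 was at the TSS of 19, both were at 16 and neither at 7. The largest fold enrichments were at KLF16, a zinc finger factor (142 for PTBP1 and 54.1 for RUNX1), and at SKI, a corepressor of TGF-beta signalling (68.0 and 40.6). IRF7, an interferon regulator, had 61.6 and 30.8, whereas IRF4 had no peak. TCF3, which encodes E proteins that pair with other hematopoietic factors, had 13.0 and 15.6.

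Of 16 signalling and tumour suppressor genes at the ends, PTBP1 was at the TSS of 13, both were at 5 and neither at 3. NOTCH1, the receptor gene, had 60.5 for PTBP1 and 27.8 for RUNX1 at the TSS, and 11 PTBP1 peaks overlapped the gene. AXIN1, a scaffold of the beta-catenin destruction complex, had 79.6 and 37.6. DVL1, FGFR3, PDGFA, TRAF2, TSC2, TRAF7, CSNK1D and MAPK12 had PTBP1 alone at the TSS, from 9.88 at MAPK12 to 27.9 at CSNK1D. The kinase gene STK11 had no peak at its TSS, the 5′ end of the annotated gene, but 5 PTBP1 peaks and 1 RUNX1 peak overlapped the gene. Whether these lay at a start site inside the gene was not tested.

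Of 18 RNA processing and ribosome genes, 12 had PTBP1 at the TSS, 7 had both and 6 had neither. PTBP1's own gene lies at 19p (chr19:797075-812327) and had a PTBP1 peak of fold enrichment 110 and a RUNX1 peak of 25.6 at its TSS. DAZAP1, a splicing regulator, had 48.8 and 51.9, and the ribosomal protein gene RPLP2 had 36.0 and 31.6. The splicing genes SRRM2 and PUF60 and the ribosomal protein gene RPS2 had PTBP1 alone at the TSS, at 20.3, 31.4 and 25.6, and 1 RUNX1 peak overlapped the body of PUF60. Among the genes with neither, RPS15, SNRPB and NOP56 also had no peak in the body. CIRBP and HNRNPH1 had none at the TSS, but PTBP1 peaks of up to 52.9 and 22.1 and RUNX1 peaks of up to 21.1 and 9.02 overlapped them.

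Of 17 metabolic and mitochondrial genes, 14 had PTBP1 at the TSS and 10 had both. P4HB, a protein disulfide isomerase at 17q, had 148 for PTBP1 and 66.2 for RUNX1. FASN, the fatty acid synthase gene, had 96.5 and 44.4, and 10 PTBP1 peaks overlapped it. GPX4, which reduces lipid peroxides, had 58.7 and 22.6. PFKL, a phosphofructokinase of glycolysis, had 13.4 and 7.52, and TALDO1 had no peak.

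TERT, the reverse transcriptase of telomerase at 5p (chr5:1253147-1295068), had no peak at its TSS, while 5 PTBP1 peaks of at most 10.5 and 1 RUNX1 peak of 6.77 overlapped the gene. The gene families copied between chromosome ends (DUX4, OR4F, WASH, DDX11L, FAM138 and TUBB8 with their pseudogenes) had 68 members at the ends. Neither list had a peak at the TSS of any of them (0 of 68) or over their bodies. The authors discarded poorly mapped reads before peak calling, and reads from near-identical copies are among those such a filter removes, so these zeros cannot be read as an absence of binding.

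The strongest PTBP1 end peaks were at promoters of protein-coding genes and were shared. SIVA1, whose upstream sequence is shown above, had a PTBP1 fold enrichment of 227 and a RUNX1 fold enrichment of 84.2. TMEM141 at 9q had 217 and 49.6, ATP8B3 at 19p 193 and 53.4, and the promoter between TMEM80 and EPS8L2 at 11p 147 and 54.1. Without a called RUNX1 peak the strongest was the 6q repeat shown above. It was a peak of 8931 bases (chr6:170145456-170154386) with a fold enrichment of 73.2 and 125 fragments at its summit. The promoters of BRSK2 (46.5) and of NOXO1 and GFER (45.9), intron 28 of WDR90 (43.0) and a site near FBXO31 (42.4) followed.

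The strongest RUNX1 end peaks were in tandem repeats or away from promoters. At 8q a peak of 4336 bases upstream of ARHGAP39 had a fold enrichment of 254, and the PTBP1 peak that overlapped it had 15.1. The 7p repeat shown above (chr7:102016-103398) had 183, and the PTBP1 peak there had 7.56. As stated above, these sizes cannot be compared between lists. Next were a site in the gene ABR at 17p (chr17:1196941-1199337, 156), 5p at chr5:1311980-1314061 (151) and intron 1 of ZFYVE28 at 4p (148), with 31.4, 44.8 and 36.6 for the overlapping PTBP1 peaks. Without a called PTBP1 peak the strongest were an 8q peak of 105, intron 3 of DMRT1 (72.2) and the AGPAT3 repeat shown above (60.9). Intron 1 of DOCK8, a gene mutated in an immunodeficiency, had 48.9.

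At the 3 fullest ends the strongest peaks of the lists were mostly at different sites, though each overlapped a peak of the other list. At 19p PTBP1 was strongest at ATP8B3, KLF16 and CFD. RUNX1 was strongest there at the promoter of MOB3A and IZUMO4 (76.7 for RUNX1 and 93.6 for PTBP1). Next for RUNX1 were intron 1 of DOT1L, the H3K79 methyltransferase gene (60.2 and 44.2), and a site near TLE6 (57.9 and 11.0). At 17q PTBP1 was strongest at P4HB, B3GNTL1 (120) and the promoter of TEPSIN and NDUFAF8 (117), and RUNX1 in intron 1 of TMEM105 (68.4), at P4HB (66.2) and near RENO1 (56.4). At 9q PTBP1 was strongest at TMEM141, DNLZ (126) and in intron 4 of GRIN1 (119). RUNX1 was strongest there in intron 12 of NSMF (103), at LINC02908 (96.2) and at the tubulin gene TUBB4B (85.0, with 119 for PTBP1).

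Tandem repeats were more frequent at end summits in both lists. A summit was counted as repeated when at least 25% of the 301 bases around it lay in words of 10 bases that occurred at least 3 times there. Of RUNX1 end peaks 57 were repeated (6.26%; Wilson interval 4.87 to 8.03%), against 1.13% in the interiors, higher on 20 of 22 autosomes (adjusted p = 0.000187, exact sign test). Of PTBP1 end peaks 84 were repeated (3.50%; 2.84 to 4.32%), against 1.33%, higher on 16 and lower on 4 (adjusted p = 0.0155, exact sign test). Of the 84 PTBP1 peaks 35 were shared and 13 were at 5p, and of the 57 RUNX1 peaks 34 were shared. With ends of 1 Mb the differences were 3.11 points for PTBP1 and 5.87 for RUNX1 and did not pass, and the PTBP1 one did not pass in windows of at least 50% GC.

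Telomere hexamers themselves were rare. A tandem pair of TTAGGG on either strand occurred within 150 bases of 4 of 2398 PTBP1 and 1 of 910 RUNX1 end summits, and of 0 interior summits in either list. Among them were PTBP1 peaks at 4q (fold enrichment 8.72), 5p (11.0) and 6q (13.4). The 5p peak overlapped the RUNX1 peak with the pair, whose fold enrichment was 11.3.

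The RUNX motif set the RUNX1-only end peaks apart from the shared ones. It occurred within 50 bases of 83 of 178 RUNX1-only end summits (46.6%; Wilson interval 39.4 to 54.0%) and of 124 of 732 shared RUNX1 end summits (16.9%; 14.4 to 19.8%). In the interiors these shares were 38.3% and 14.0%. Of all RUNX1 summits 22.7% had the motif at the ends and 24.2% inside (adjusted p = 0.523, exact sign test). Of PTBP1 summits 10.1% had it at the ends and 8.32% inside, higher on 16 and lower on 6 autosomes, which did not pass (adjusted p = 0.0637, exact sign test). Repeated RUNX1 end summits had it in 28 of 57 cases (49.1%; 36.6 to 61.7%), against 21.0% of the other 853. In the interiors these shares were 41.3% and 24.1%.

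**Figure D5:**
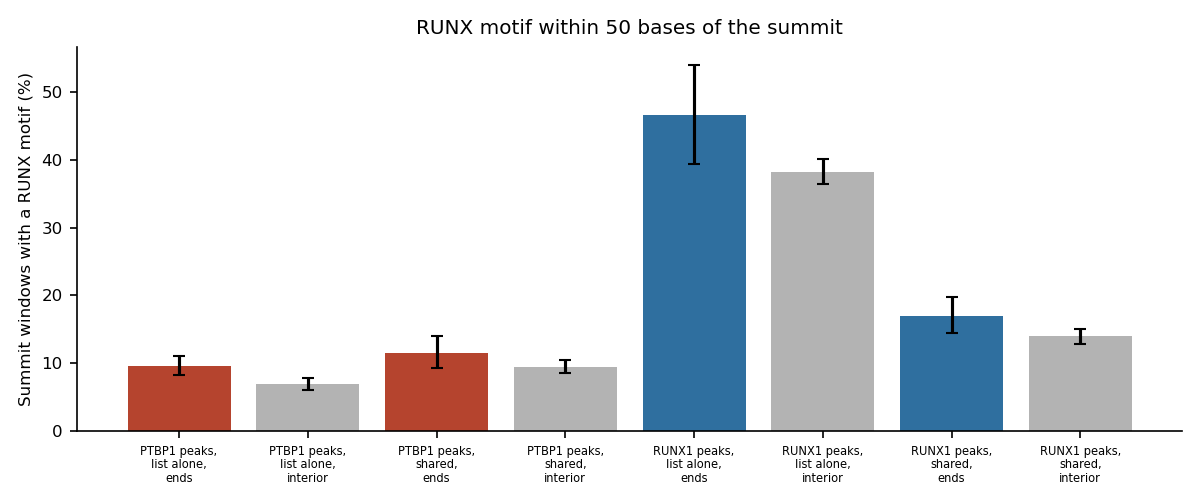
Percent of summit windows (50 bases either side) with TGTGGT or TGCGGT on either strand, for peaks of 1 list alone and for shared peaks, at the ends (coloured) and in the interiors (grey); bars are 95% Wilson intervals. RUNX1-only end peaks stand highest at 46.6%, and PTBP1-only interior peaks lowest at 6.88%.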

How the data were processed

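CUT&Tag and CUT&RUN libraries of MOLM-13 cells were made by the authors. Bowtie2 placed the trimmed read pairs on hg38, poorly mapped and duplicate reads were discarded, and MACS3 called peaks, with 1e-07 as the largest q-value. Per the labels bedtools 2.30.0 was also used. The 2 deposited peak lists give for each peak a score (the −log10 q-value times 10, as an integer), a fold enrichment, the −log10 p-value and the −log10 q-value. The fold enrichment was read as the summit pileup plus 1, divided by the background plus 1. The study's methods describe this peak calling for CUT&Tag. Whether replicates were pooled, and which control was used, is not given in the sources used here. Library depth is unknown, and fragments at a summit were solved from the deposited fold enrichment and −log10 p-value. The background solved in the same way was near 0.72 for PTBP1 and 0.33 for RUNX1 at the named peaks.

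Members were all peaks under the 3 Mb rule, with no filter on values. The rule, the gene lists and the tests were chosen with earlier results of these data known. Genes came from GENCODE version 44. Named genes were those of the lists within 3 Mb of an end, the 5 strongest peaks of each list and class, the peak of each list nearest to an end and the 3 strongest of each list at the 3 fullest ends. A few items that this rule names are not reported here. Genes holding many summits were chosen after their values were seen. Ends and interiors were compared over autosomes by two-sided exact sign tests, for shares over autosomes with at least 5 end peaks. Neighbouring peaks and genes are not independent, and these tests describe 2 lists, not variation between cultures. On simulated lists without enrichment 0 of 20 were called for density and 1 of 20 for the difference between lists, and with a planted fold of 4 at the ends 20 of 20 were called for both. Apart from the planted fold, simulated peaks were drawn independently and evenly over assembled sequence. They lack the clustering of the real lists, so the error rate for clustered peaks was not tested. Python 3.11.15, numpy 2.4.6, pandas 2.3.3, scipy 1.17.1, statsmodels 0.14.6 and matplotlib 3.10.9 were used. Coordinates are 1-based. Alternatives covered the width of the end, the significance threshold, dense windows, chromosomes, start sites, overlap, motif, repeats and, added after seeing the data, GC content.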

Additional observations from a re-analysis of the deposited data

Results flagged for a closer look

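The ends held a larger share of the PTBP1 than of the RUNX1 list, by 13.89 percentage points, and this was singled out because the difference between the lists was itself tested (21 of 22 autosomes, adjusted p = 2.66e-05, two-sided exact sign test). In windows of at least 50% GC the shares were 46.8% and 30.5%, larger for PTBP1 on 19 of 19 autosomes that differed (adjusted p = 3.24e-05, exact sign test). Such windows were not matched in GC share between ends and interiors. Without the 1 Mb windows that held at least 50 PTBP1 peaks the difference fell to 5.63 points, larger for PTBP1 on 20 of 22 autosomes (adjusted p = 0.000515, exact sign test).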

How the results depend on the processing

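The 17 comparisons were each recomputed under the alternatives that applied to them. Of the resulting values 136 kept their direction and their side of the 0.05 threshold. Of the rest, 8 no longer passed, 3 newly passed and 2 changed direction. RUNX1 fold enrichment had a main difference of 0 and so no direction to keep. Its values count among the 136 by the threshold alone. With an end of 1 Mb the repeat differences were 3.11 points for PTBP1 and 5.87 points for RUNX1 and did not pass. In windows of at least 50% GC, chosen after seeing the data, 5 results did not pass: RUNX1 density (log2 ratio 0.28), RUNX1 density away from start sites (0.22), coding TSSs with RUNX1 (7.83 points), PTBP1 peaks at a TSS (-14.8 points) and PTBP1 repeats (1.78 points). Within these windows the ends were still richer in GC than the interiors. Coding TSSs with RUNX1 also did not pass among GC-rich start sites (5.54 points). The RUNX motif at PTBP1 summits passed with an end of 5 Mb (1.51 points), with TGTGGT alone (2.59) and with 100 bases either side (3.34). The RUNX motif at RUNX1 summits turned to 0.81 points without dense windows and to 1.80 in windows of at least 50% GC, and passed in neither. Dense windows also carried much of the PTBP1 density, which without them was 9.80 per Mb at the ends against 2.42 (log2 ratio 2.02). The causes were not tested. No paired analysis was possible because the peak lists carry no replicate, and for the same reason no replicate could be left out. The depth of the libraries limits which weak sites could be called and is unknown.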
